A study of Saccharomyces cerevisiae with 12 samples.

Results

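The late phase of the response to galactose and hydroxyurea (HU) was followed by comparing control-vector cells at 4 h with control-vector cells at 2 h. Galactose and HU were present on both sides of the comparison, and 2 libraries were available for each time, 4 of the 12 in the series. Of 7126 genes in the tables, 6809 had a completed estimate in every library and averaged at least 1 FPKM over the 4 libraries compared, and these were tested. All cells were wild type Saccharomyces cerevisiae of the MATa laboratory strain BY4741. They carried pBY011, a URA3-marked empty vector, and had grown on raffinose without uracil before galactose (2%) and HU (200 mM) were added. The 0 h libraries of the same cells, taken before either addition, gave the starting level. The libraries from cells with pBY011-YOX1, in which galactose drives expression of the repressor gene YOX1, were used only to see which late changes also occurred there. By the methods, cultures were sampled before the additions and again at both later times, so the 2 h and 4 h samples are serial samples, but whether a replicate number marks the same culture at each time is not given in the sources used here. Time after the additions and age of the culture cannot be told apart in this design.

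Hydroxyurea inhibits ribonucleotide reductase, so that dNTP pools shrink, replication forks slow down and the S-phase checkpoint raises the expression of the enzyme's own subunit genes. Galactose switches on the GAL genes through Gal4 and can then be fermented in place of raffinose, a sugar that the secreted invertase Suc2 must cleave first. Cells held before mitosis do not complete division, so genes that are transcribed at mitosis or in newborn daughter cells are a readout of where a culture stands in the cycle.

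Transcript abundance was given as FPKM, a fragment density per transcript length and library size, which corrects for transcript length and can be set side by side between genes. FPKM were scaled so that the median gene had the same level in every library. All values below are scaled FPKM unless a log2 change or values as deposited are named. The libraries corresponded to 11670000 and 12280000 fragments at 4 h, and to 13160000 and 10840000 at 2 h. The a-specific genes checked the mating type as a sum, which over 7 genes was 3464 and 2655 at 4 h. The 4 alpha-specific genes summed to 41.7 and 49.6. MFA2 (1640 to 2230 in the 4 libraries) and MFA1 (563 to 887) had the largest a-specific values. AGA2, STE2 and STE6 (42.2 to 52.3) also lay above every alpha-specific gene. ASG7 (12.6 to 17.1) and BAR1 (17 to 32.8) did not, since MF(ALPHA)2 (15.9 to 22.1) and SAG1 (14.3 to 18.1) overlapped them. The auxotrophies of BY4741 also checked, since LEU2 was listed at 0 and MET17 lay between 0.113 and 0.42 in the 4 libraries. HIS3, which the strain's allele removes only in part, lay between 63.4 and 86.9. URA3 lay between 273 and 380.

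At 4 h 671 genes were higher than at 2 h (9.85% of those tested) and 588 were lower (8.64%), with the Benjamini-Hochberg adjusted p of limma under 0.05. At an unadjusted p under 0.05 the counts were 1148 and 1141. Most of the late changes were small. The median log2 change was 0.43 among the higher genes and -0.34 among the lower ones, and 64 and 43 genes changed at least 2-fold. All called genes had libraries of the 4 h and 2 h groups that did not overlap, as had 2052 genes in the higher and 2011 in the lower direction overall. Genes under 300 bp made up 31 of the higher and 23 of the lower calls and are not described singly. The balance of the directions rested on the scaling. With the values as deposited the median of all genes moved by -0.09 on the log2 scale, 426 genes were called higher and 1291 lower, and 24.8% of the calls were higher instead of 53.3%. The counts also fell when a library was left out. Without 4 h replicate 1, 2 h replicate 1 or 2 h replicate 2, the higher genes numbered 350, 373 and 347, and the lower genes 278, 265 and 249.

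**Figure D1:**
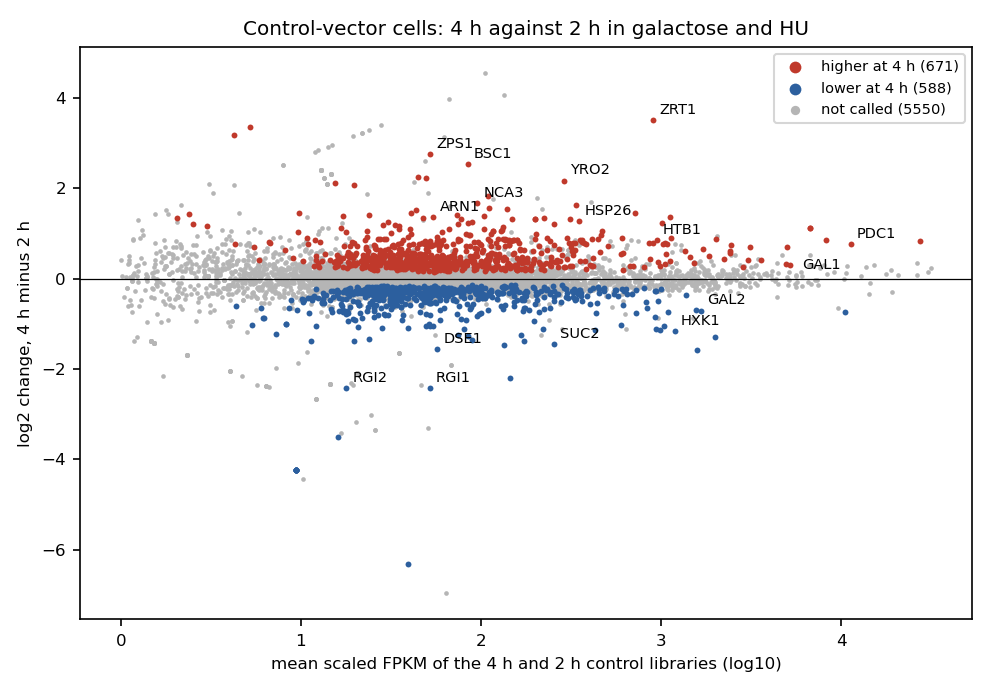
Each point is 1 of the 6809 genes tested, placed by its mean scaled FPKM in the 4 h and 2 h control libraries (x axis, log10) and its log2 change, 4 h minus 2 h (y axis). Red points (671) were called higher at 4 h, blue points (588) were called lower and grey points were not called. ZRT1 stands apart at a log2 change of 3.52 and RGI1 lies at -2.43, while GAL1 lies near 0.

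Genes of zinc supply included the largest late increase among the genes called. Yeast answers falling zinc through the transcription factor Zap1, which activates genes for zinc uptake, for release of zinc from the vacuole and for its own synthesis. Of the 7 zinc genes tested, 6 were higher at 4 h and 0 were lower, with a median log2 change of 1.05 against 0.003 over all genes tested. ZRT1 (YGL255W, chromosome VII, 20978 to 22108), the high-affinity zinc transporter of the plasma membrane, had 1712 and 1614 FPKM at 4 h, against 139.6 and 149.6 at 2 h. The 4 h libraries lay far above the 2 h libraries, and the fitted change was 11.4-fold (log2 change 3.52, SE 0.26, limma, Benjamini-Hochberg adjusted p 0.000176). At 0 h ZRT1 had 23.2 and 22.6 FPKM, so the 2 h level lay between the others.

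ZPS1 (YOL154W, chromosome XV, 34658 to 35407), which encodes a zinc-regulated cell surface protein, had 88.1 and 94.8 FPKM at 4 h, against 12.7 and 12.7 at 2 h, a log2 change of 2.75 (SE 0.08, limma, Benjamini-Hochberg adjusted p 2.12e-06). Unlike ZRT1, ZPS1 was at 10.5 and 10.3 FPKM before the additions, close to its 2 h level. ZAP1 itself had 57.0 and 64.8 FPKM at 4 h, against 21.3 and 21.5 at 2 h (log2 change 1.46, SE 0.11), and 10.9 and 10.9 at 0 h. ZRT3, which exports zinc from the vacuole, had 173 and 176 FPKM at 4 h, against 81.9 and 85.8 at 2 h (log2 change 1.05). ADH4, a zinc-regulated alcohol dehydrogenase, had 75.6 and 74.6 FPKM at 4 h, against 40.0 and 38.5 at 2 h, and stood at 38.9 and 35.7 at 0 h. None of these 5 genes had libraries that overlapped between the times. The vacuolar importer ZRC1 changed least among the called members, by a log2 change of 0.25, and was the member whose level at 0 h, 161 and 156 FPKM, lay above that at 2 h, 115 and 107. The low-affinity transporter ZRT2 had 109 and 114 FPKM at 4 h, against 99.3 and 95.5 at 2 h, and was not called (limma, Benjamini-Hochberg adjusted p 0.0782). The count of higher members was 5 or 6 with any 1 library left out and 6 without scaling.

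The Zap1 element, ACCTT and AAGGT around any 1 base, was searched on both strands in the 500 bases before the start codon of 6000 genes. This element was chosen after the values were seen, and an exact match lay before 1 of the 7 zinc genes, ZRT1. Of the genes called higher, 3 of the 636 with a searched promoter (0.472%) held a match. The share over all promoters is not given here, so neither count was read as an excess. Capitals mark the match in the 300 bases before the ZRT1 start codon, at 204 to 194 bases before it (chrVII:20678-20977, plus strand, RefSeq R64 assembly, the build called sacCer3), shown because this gene had the largest increase called.
ZRT1: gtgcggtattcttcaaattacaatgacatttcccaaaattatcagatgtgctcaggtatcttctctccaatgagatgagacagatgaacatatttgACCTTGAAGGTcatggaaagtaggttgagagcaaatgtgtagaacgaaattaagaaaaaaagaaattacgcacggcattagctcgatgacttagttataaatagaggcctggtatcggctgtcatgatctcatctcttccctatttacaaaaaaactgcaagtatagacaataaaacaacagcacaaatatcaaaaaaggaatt

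Genes of daughter-cell separation moved the other way. After cytokinesis a set of genes is transcribed mainly in the daughter nucleus, among them genes for enzymes that cut the septum from the daughter side. Of 10 genes tested, 8 were lower at 4 h and 1 was higher, with a median log2 change of -0.85. CTS1 (YLR286C, chromosome XII, 708448 to 710136), the chitinase of the septum, had 93.7 and 103 FPKM at 4 h, against 218 and 250.1 at 2 h, a log2 change of -1.24 (SE 0.09, limma, Benjamini-Hochberg adjusted p 0.000156). At 0 h it had 659.5 and 624 FPKM. A small gene, YLR286W-A, overlaps CTS1, and reads were not assigned by strand.

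DSE1 (YER124C, chromosome V, 407342 to 409063), a daughter-specific gene that takes part in separation, had 27.9 and 29.3 FPKM at 4 h, against 78.8 and 93.4 at 2 h (log2 change -1.55, SE 0.11). DSE2, a daughter-specific glucanase-like protein, had 48.4 and 50.3 FPKM at 4 h, against 114 and 145 at 2 h (log2 change -1.36, SE 0.11). Both had been far higher at 0 h, DSE1 at 216 and 193 and DSE2 at 348 and 370.1 FPKM. The other 5 lower members were DSE3 (log2 change -0.80), the glucanase gene DSE4 (-0.90), the cell wall glucanase gene SCW11 (-0.91), EGT2 (-0.80) and AMN1 (-0.61), whose product ends mitotic exit signalling in daughters. All 8 had a lower level at each successive time, as the plot of levels by time shows. ASH1, which represses mating-type switching in daughters, was called higher (log2 change 0.23), a call lost without 2 h replicate 1 or either 4 h library. BUD9, a marker of the daughter bud site, had 16.7 and 19.0 FPKM at 4 h, against 18.6 and 21.0 at 2 h, and was not called. The count of 8 lower genes held without scaling and with any 1 of the 4 libraries left out. In bulk RNA, fewer cells at a stage and less RNA per cell cannot be told apart.

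The CLB2 cluster, genes transcribed from G2 to mitosis under Fkh2, Ndd1 and Mcm1, was higher at 4 h while the daughter genes were lower. Of 16 genes tested, 14 were higher and 0 lower, with a median log2 change of 0.46. CDC20, the activator of the anaphase-promoting complex, had 24.9 and 22.1 FPKM at 4 h, against 14.6 and 13.2 at 2 h (log2 change 0.72, SE 0.08, limma, Benjamini-Hochberg adjusted p 0.00101). SWI5, a transcription factor that enters the nucleus at the end of mitosis, had 45.8 and 42.0 FPKM at 4 h, against 29.0 and 27.8 at 2 h (log2 change 0.61). The libraries of both genes did not overlap between the times. The mitotic cyclin gene CLB1 had 110.3 and 91.3 FPKM at 4 h, against 64.7 and 65.0 at 2 h (log2 change 0.62), and CLB2 changed by 0.63 on the log2 scale. At 0 h CDC20 stood at 31.2 and 29.6 and SWI5 at 59.9 and 56.9 FPKM, so their level at 2 h was below the starting level. MYO1 and BUD4 were the members not called. This count was sensitive to single libraries: without 4 h replicate 1, 4 h replicate 2, 2 h replicate 1 or 2 h replicate 2, the higher members numbered 5, 14, 6 and 5, and without scaling they numbered 9.

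Other cell cycle genes were called in both directions. Among 16 genes of G1 and Start, CLN3 and NRM1 were higher and CLN2 and WHI5 lower, with a median log2 change of -0.07, shares near those over all genes tested (9.85% higher and 8.64% lower). Without scaling 1 was higher and 5 were lower. CLN3, the G1 cyclin that senses growth, had 104 and 103 FPKM at 4 h, against 60.1 and 64.4 at 2 h, a log2 change of 0.73. CLN2, a G1 cyclin that follows it, had 34.3 and 38.4 FPKM at 4 h, against 50.8 and 50.6 at 2 h (log2 change -0.47). The libraries of these cyclin genes did not overlap between the times, and the changes had opposite signs. The call of NRM1 was lost with any 1 library left out, and that of WHI5 without 4 h replicate 1 or either 2 h library. CDC6, the loader of the replicative helicase, had 55.7 and 53.5 FPKM at 4 h, against 33.1 and 34.4 at 2 h (log2 change 0.68). With MCM7, MCM3, ORC3 and ORC5 it made up the 5 of 14 licensing genes that were higher, and 0 were lower. Without 4 h replicate 1, 2 h replicate 1 or 2 h replicate 2, the count was 3, 3 and 2, and it was 3 without scaling.

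Of 24 replication fork genes, POL32 was higher and PRI1 lower, and both calls were lost without either 2 h library and without 4 h replicate 1, that of PRI1 also without 4 h replicate 2. Of 24 spindle and cohesin genes, 7 were lower and 0 higher, with a median log2 change of -0.11, among them ESP1, the separase (log2 change -0.31), and PDS1, its inhibitor (log2 change -0.60). The 7 became 2, 3 and 1 without 4 h replicate 1, 2 h replicate 1 or 2 h replicate 2. The 8 core histone genes were all higher in the mean, with 3 called. HTB1, which encodes histone H2B, had 1229.5 and 1201 FPKM at 4 h, against 686 and 664 at 2 h, a log2 change of 0.85 (SE 0.07). Its copy HTB2 had 492 and 529 FPKM at 4 h, against 511 and 479 at 2 h, and was not called, although the coding sequences of such copies are nearly identical and their reads may be divided wrongly. The calls of the histone H4 genes HHF1 (log2 change 0.39) and HHF2 (0.35) were lost without 4 h replicate 1 or 2 h replicate 2.

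**Figure D2:**
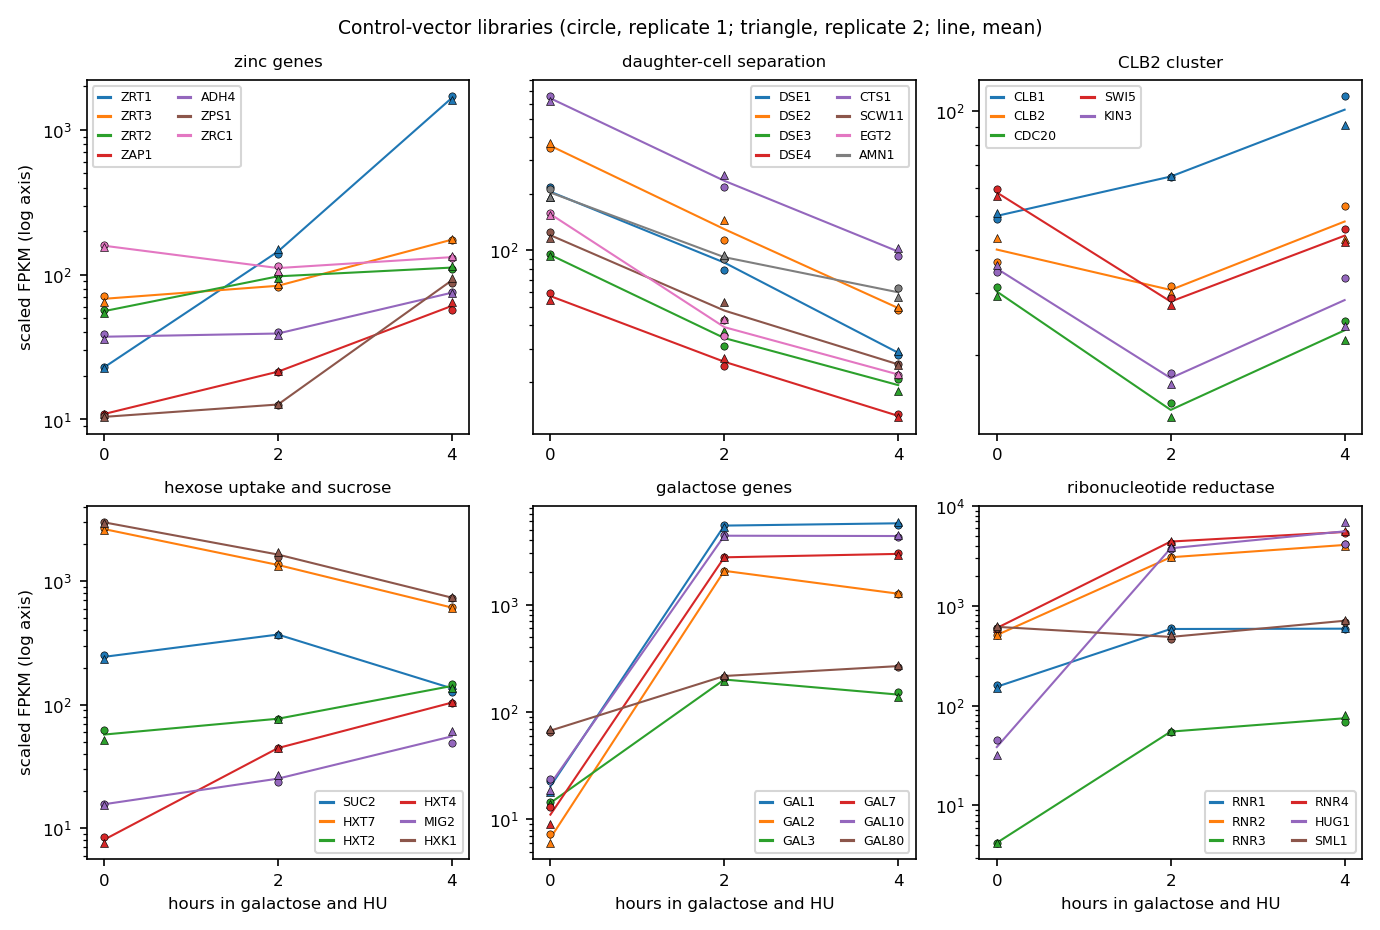
Scaled FPKM (y axes, log scale) of genes from 6 groups in the control-vector libraries at 0 h, 2 h and 4 h (x axes). Circles are replicate 1, triangles replicate 2 and lines the means of 2 libraries. Between 2 h and 4 h the zinc genes climb, the daughter-cell separation genes keep falling, and GAL2 falls while GAL1, GAL7 and GAL10 were not called.

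The subunit genes of ribonucleotide reductase, the target of HU, that were called changed less between 2 h and 4 h than before 2 h. Of 11 genes for the enzyme and its regulators, 4 were higher at 4 h and 0 lower, with a median log2 change of 0.31. RNR1, the large subunit, had 581 and 599 FPKM at 4 h, against 605 and 566 at 2 h, and the groups overlapped. RNR2, a small subunit, had 4172 and 3968 FPKM at 4 h, against 3058 and 3070.4 at 2 h (log2 change 0.41, SE 0.06, limma, Benjamini-Hochberg adjusted p 0.0042). Both 4 h libraries of RNR2, which overlaps the small gene YJL026C-A, lay above both 2 h libraries. RNR4, the other small subunit, had 5326 and 5661 FPKM at 4 h, against 4297 and 4509 at 2 h (log2 change 0.32). RNR3, the damage-inducible large subunit, had 69.0 and 80.3 FPKM at 4 h, against 54.6 and 55.1 at 2 h (log2 change 0.43). For scale, RNR3 had 4.20 and 4.24 and RNR2 513 and 505 FPKM at 0 h, so the late step was the smaller part of the increase. SML1, the inhibitor that the checkpoint removes at the protein level, had 693 and 723 FPKM at 4 h, against 467 and 508 at 2 h (log2 change 0.54). HUG1, a small inhibitor of the enzyme and a checkpoint reporter, had 4179.7 and 6968 FPKM at 4 h, against 3701 and 3841 at 2 h. Its 4 h libraries differed from each other by more than the means of the times did, and it was not called (limma, Benjamini-Hochberg adjusted p 0.167). Leaving out 4 h replicate 2, 2 h replicate 1 or 2 h replicate 2 left 2 higher members, without RNR3 and RNR4.

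Transcripts of the checkpoint and of homologous recombination moved little in the median, by -0.06 and 0.03 on the log2 scale. Over all genes tested 9.85% were called higher, and the count of neither group was tested against that share. RAD9 was the sole member called among 14 checkpoint genes (log2 change 0.30), a call lost without 4 h replicate 1 or 2 h replicate 2. Of 15 recombination genes, RAD52 (log2 change 0.24), RAD54 (0.26) and RAD59 (0.39) were higher, and none of the 3 was called with the values as deposited. The higher count fell to 0 without 4 h replicate 1 or 2 h replicate 2, and to 1 without 4 h replicate 2. DUN1, the kinase that relays the signal to the RNR genes, had 67.3 and 68.9 FPKM at 4 h, against 68.8 and 65.8 at 2 h.

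Of the main galactose genes, those of the enzymes were not called between the times and that of the permease was lower at 4 h. GAL1, the galactokinase, had 5518 and 5928 FPKM at 4 h, against 5565 and 5328 at 2 h. GAL10, the epimerase, had 4233 and 4477 FPKM at 4 h, against 4408 and 4361 at 2 h. GAL7, the transferase, had 3021 and 2916 FPKM at 4 h, against 2750.5 and 2767 at 2 h. None of these 3 was called, with log2 changes of 0.07, -0.01 and 0.11 and standard errors of 0.20, 0.14 and 0.15. GAL2 (YLR081W, chromosome XII, 290212 to 291936), the galactose permease, had 1249 and 1279 FPKM at 4 h, against 2062 and 2066 at 2 h, a log2 change of -0.71 (SE 0.12, limma, Benjamini-Hochberg adjusted p 0.00632). It had been at 7.36 and 6.01 at 0 h.

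The regulators of the switch shifted as well. GAL3, the galactose sensor, had 153 and 138 FPKM at 4 h, against 205 and 196 at 2 h (log2 change -0.46), and the activator GAL4 had 15.4 and 16.6 FPKM at 4 h, against 22.3 and 23.3 at 2 h (log2 change -0.49). GAL80, the repressor that Gal3 relieves, had 261 and 274 FPKM at 4 h, against 214 and 219 at 2 h (log2 change 0.30). Sensor and activator were thus lower and the repressor higher, the last by a call that was lost without either 2 h library or 4 h replicate 2. LAP3 (GAL6), a Gal4-regulated protease, was higher by 0.53, and PGM1, a phosphoglucomutase, was lower by -0.23 on the log2 scale. In all, 2 of the 11 galactose genes were higher and 4 lower, with scaling and without it. With a library left out the higher genes numbered 1 or 2 and the lower genes 3 or 4, and the higher count was 1 without 4 h replicate 2 or either 2 h library.

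Genes for the use of raffinose and of scarce hexose changed in both directions. Yeast adjusts its hexose transporters to the sugar outside, and invertase and high-affinity transporters are repressed when glucose is plentiful. SUC2 (YIL162W, chromosome IX, 37385 to 38983), the invertase that releases fructose from raffinose, had 127 and 145 FPKM at 4 h, against 368 and 373 at 2 h, a log2 change of -1.44 (SE 0.08, limma, Benjamini-Hochberg adjusted p 5.56e-05). At 0 h it had 255 and 234 FPKM, between its levels at the later times. HXT6 and HXT7, near-identical high-affinity transporters whose reads cannot be separated with certainty, had 620.0 and 606 FPKM (HXT7) at 4 h, against 1389 and 1324 at 2 h, a log2 change of -1.14. HXT4, induced by low glucose, had 104 and 104 FPKM at 4 h, against 44.4 and 44.9 at 2 h (log2 change 1.20), and at 0 h it had 8.56 and 7.60. HXT7 and HXT4 therefore changed in opposite directions over the same interval.

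MIG2, a repressor that glucose induces, had 49.3 and 61.8 FPKM at 4 h, against 23.5 and 27.0 at 2 h (log2 change 1.10). The glucose sensor gene SNF3 had 14.4 and 14.5 FPKM at 4 h, against 23.6 and 22.3 at 2 h (log2 change -0.63), and its paralog RGT2 had 22.8 and 26.3 FPKM at 4 h, against 19.8 and 19.5 at 2 h (log2 change 0.30). STD1 (log2 change 0.78) and MTH1 (-0.37), paralogous regulators of the HXT genes, moved apart, STD1 up and MTH1 down. In all, 5 of 17 genes of hexose transport and sucrose use were higher and 5 lower, and the call of HXT2 was lost with any 1 library left out. The lower count was 5 or 6 with any 1 library left out, and the higher count was 2 without 4 h replicate 2 or either 2 h library, with HXT2 (log2 change 0.87) lost in each.

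Both hexokinase transcripts fell. HXK1 (YFR053C, chromosome VI, 253592 to 255049), a hexokinase that is abundant in cells on non-glucose carbon, had 734 and 741 FPKM at 4 h, against 1559.8 and 1735 at 2 h (log2 change -1.16), and 3041 and 2965 at 0 h. It overlaps the small gene YFR052C-A. HXK2, the hexokinase that dominates on glucose, had 628 and 694 FPKM at 4 h, against 1147 and 1238 at 2 h (log2 change -0.85). The libraries of both genes did not overlap between the times. PDC1, the main pyruvate decarboxylase, had 12697 and 15726 FPKM at 4 h, against 8736 and 8003 at 2 h (log2 change 0.76), a call lost without 4 h replicate 2 or 2 h replicate 2. Of 21 genes of glycolysis and fermentation, 4 were higher and 3 lower. The higher genes numbered 1 without scaling, and 2, 0, 1 and 0 without 4 h replicate 1, 4 h replicate 2, 2 h replicate 1 or 2 h replicate 2.

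RGI1 and its paralog RGI2 were among the 15 largest decreases of called genes of at least 300 bp that reached 10 FPKM. RGI1 (YER067W, chromosome V, 292066 to 292551), named for respiratory growth induction, had 16.6 and 14.5 FPKM at 4 h, against 97.6 and 79.1 at 2 h and 617 and 643 at 0 h. The log2 change was -2.43 (SE 0.22, limma, Benjamini-Hochberg adjusted p 0.00048). YER067C-A and YER066C-A overlap RGI1 on the other strand and carried log2 changes of -2.19 and -1.24, so the 3 values are not independent. RGI2, the paralog, had 3.13 and 7.11 FPKM at 4 h, against 24.1 and 37.1 at 2 h, a call lost without 4 h replicate 1 or either 2 h library. JEN1, the lactate and pyruvate importer, had 71.6 and 69.9 FPKM at 4 h, against 215 and 182 at 2 h (log2 change -1.47). MPC3, the subunit of the mitochondrial pyruvate carrier that is used in respiring cells, had 51.1 and 47.6 FPKM at 4 h, against 118 and 121 at 2 h (log2 change -1.26). These genes had non-overlapping libraries, and those of RGI1 and MPC3 were highest at 0 h.

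ISF1 (log2 change -1.38), YMR206W (-1.37), YBR051W (-1.39, overlapping REG2) and ARO10 (-1.25) completed the 15 largest decreases together with the genes above. ARO10, a decarboxylase of amino acid breakdown to fusel alcohols, had 46.6 and 40.5 FPKM at 4 h, against 112 and 97.8 at 2 h, and 52.8 and 49.9 at 0 h, so it had been higher at 2 h than at either other time. The call of YBR051W was lost without 4 h replicate 2 or 2 h replicate 2, and its level at 4 h was 7.35 and 4.38 FPKM. Of 15 TCA cycle genes, 4 were lower and 0 higher (median -0.13), led by SDH1, a succinate dehydrogenase subunit (log2 change -0.51), and CIT1, the mitochondrial citrate synthase (-0.34). CIT2, the peroxisomal citrate synthase, was higher, with 369 and 415 FPKM at 4 h, against 228 and 257 at 2 h (log2 change 0.69). Of 30 respiratory chain and ATP synthase genes, 5 were lower and 0 higher, and of 54 mitochondrial ribosomal protein genes, 8 were lower and 0 higher. Over all genes tested 8.64% were called lower, and the counts of these groups were not tested against that share. Those lower counts of 5 and 8 became 12 and 29 without scaling, and with a library left out they ranged from 0 to 2 and from 3 to 6, while the TCA cycle count was 2. The lowest values were reached without 2 h replicate 1 for the respiratory genes and without 2 h replicate 2 for the ribosomal ones.

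Genes of storage carbohydrate were called in both directions, mostly lower. Of 18 glycogen and trehalose genes, 10 were lower and 2 higher, with a median log2 change of -0.16. GSY1 (YFR015C, chromosome VI, 174265 to 176391), a glycogen synthase, had 25.5 and 24.1 FPKM at 4 h, against 58.9 and 49.5 at 2 h (log2 change -1.09, SE 0.17, limma, Benjamini-Hochberg adjusted p 0.00487), and 382 and 371 at 0 h. GAC1, which targets protein phosphatase to glycogen synthase, had 40.0 and 34.9 FPKM at 4 h, against 67.2 and 65.6 at 2 h (log2 change -0.81), and the branching enzyme GLC3 had 75.7 and 71.5 FPKM at 4 h, against 133 and 119 at 2 h (log2 change -0.77). The members that were higher were NTH1, the neutral trehalase, with 194 and 197 FPKM at 4 h, against 157 and 148 at 2 h (log2 change 0.36), and GDB1, the glycogen debranching enzyme (log2 change 0.32). The call of GDB1 was lost without any 1 of the libraries. Without 4 h replicate 1, 4 h replicate 2, 2 h replicate 1 or 2 h replicate 2, the lower members numbered 4, 4, 3 and 6.

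Lipid synthesis genes were also lower where they were called. Of 12 genes of phospholipid and fatty acid synthesis, 6 were lower and 0 higher, with a median log2 change of -0.33. With the spread taken from the 4 libraries alone, 0 were lower. ACC1, acetyl-CoA carboxylase, had 318 and 318 FPKM at 4 h, against 635 and 466 at 2 h (log2 change -0.77, SE 0.14). CHO1, phosphatidylserine synthase, had 148 and 139.6 FPKM at 4 h, against 211 and 179.8 at 2 h (log2 change -0.44). The fatty acid synthase subunits FAS1 (log2 change -0.38) and FAS2 (-0.38), the desaturase gene OLE1 (-0.53) and the inositol transporter gene ITR1 (-0.30) were the others. INO1, inositol phosphate synthase, had 45.3 and 43.2 FPKM at 4 h, against 33.3 and 26.1 at 2 h, and was not called. Of 22 ergosterol genes, 5 were lower and 1, ERG1, was higher (log2 change 0.39), and 15 were lower without scaling. The lower ergosterol genes numbered 2 without 4 h replicate 1 or either 2 h library and 3 without 4 h replicate 2. Without 2 h replicate 1 the lower lipid genes numbered 3, 4 without 2 h replicate 2 and 4 without 4 h replicate 1.

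Of the ribosome biogenesis genes about as many were called higher, by small amounts, as were not called. These genes encode the factors that process ribosomal RNA and assemble ribosomal subunits, and in yeast they respond together to growth conditions. Of 53 genes with UTP, NOP or RRP names, 26 were higher and 0 lower, with a median log2 change of 0.25, and 50 of 53 changes were positive. UTP9, a subunit of the small-subunit processome, had 67.3 and 56.8 FPKM at 4 h, against 44.1 and 42.1 at 2 h (log2 change 0.51, SE 0.10). RRP36 had 41.9 and 30.6 FPKM at 4 h, against 23.5 and 25.9 at 2 h (log2 change 0.52). The count depended on the analysis. It was 6 without scaling, when the median was 0.16, and 0 with the spread taken from the 4 libraries alone. Leaving out 4 h replicate 1, 4 h replicate 2, 2 h replicate 1 or 2 h replicate 2 gave 4, 15, 10 and 3. The 135 cytosolic ribosomal protein genes tested did not share the increase, with 1 higher, 4 lower and a median of -0.06. The higher one, RPL39, was listed at 14.9 and 14.6 FPKM at 4 h, against 4.36 and 5.22 at 2 h. These values correspond to at most 2 fragments, and the gene overlaps YJL188C. RPL39 was among the 15 largest increases but was not called with a pseudocount of 0.1 (limma, Benjamini-Hochberg adjusted p 0.0842).

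Promoters of the ribosome biogenesis genes often hold the PAC element (GCGATGAG) and the RRPE element (AAAAATTTT). Within 500 bases of the start codon PAC was found in 43.4% of the 53 genes, against 4.83% of all promoters, and RRPE in 50.9%, against 9.47%. Over all genes called higher the shares were 12.1% for PAC and 16.7% for RRPE, and over all genes called lower they were 2.33% and 6.81%. Within the list, PAC was present before 11 of the 26 genes called higher and 12 of the 27 not called. RRPE was present before 15 and 12 of them, and either element before 20 and 17. PAC alone was thus about as frequent before the genes not called, and no test compared these counts. The 180 bases before the start codon of NOP8 are shown (chrXV:52918-53097, plus strand), since among the called members with both elements its change was the largest (log2 change 0.40). RRPE at 119 to 111 bases and PAC at 101 to 94 bases before the start codon are in capitals, RRPE as its complement AAAATTTTT.
NOP8: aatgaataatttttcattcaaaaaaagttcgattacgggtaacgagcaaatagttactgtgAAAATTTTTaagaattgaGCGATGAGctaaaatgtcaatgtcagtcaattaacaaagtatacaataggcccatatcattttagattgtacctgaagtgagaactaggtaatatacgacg

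Sulfur amino acid genes rose in part. Of 18 genes of sulfate assimilation and methionine metabolism, 9 were higher and 0 lower, with a median log2 change of 0.30. SAM1 (YLR180W, chromosome XII, 515262 to 516410), S-adenosylmethionine synthetase, had 336 and 371 FPKM at 4 h, against 168 and 139 at 2 h (log2 change 1.21, SE 0.13, limma, Benjamini-Hochberg adjusted p 0.001). It had been at 269.6 and 262 FPKM at 0 h, so the 2 h level was the lowest of the 3 times. MUP1, the methionine permease, had 113 and 119 FPKM at 4 h, against 77.5 and 70.3 at 2 h (log2 change 0.65), and MET6, methionine synthase, had 407 and 396 FPKM at 4 h, against 292 and 232 at 2 h (log2 change 0.62). The count was 3, 6, 7 and 4 without 4 h replicate 1, 4 h replicate 2, 2 h replicate 1 or 2 h replicate 2.

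General stress genes were called in both directions, although most changes were positive. Among 16 genes, 5 were higher and 3 lower, 13 of the 16 changes were positive and the median log2 change was 0.23. GND2, an isoform of the pentose phosphate pathway enzyme that makes NADPH, had 119 and 119 FPKM at 4 h, against 51.5 and 48.2 at 2 h (log2 change 1.24, SE 0.10, limma, Benjamini-Hochberg adjusted p 0.000211), and 14.0 and 12.9 at 0 h. CTT1, cytosolic catalase, had 78.3 and 71.7 FPKM at 4 h, against 44.6 and 37.6 at 2 h (log2 change 0.86). HSP12, a membrane-protecting stress protein, was lower, with 7709 and 7950.0 FPKM at 4 h, against 14513 and 11910.0 at 2 h (log2 change -0.75), a call lost with any 1 library left out. The other lower members were RGI1 and RGI2. Without 4 h replicate 1, 4 h replicate 2, 2 h replicate 1 or 2 h replicate 2, the higher members numbered 2, 2, 3 and 2.

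Genes of oxidative and xenobiotic defence were mostly higher where they were called, 7 of 22 against 1. GTT2, a glutathione transferase, had 173 and 192 FPKM at 4 h, against 75.8 and 88.2 at 2 h (log2 change 1.15), a call lost without 2 h replicate 1. AAD4, an aryl-alcohol dehydrogenase-like gene, is not among these 22 and was 1 of the 15 largest increases. AAD4 had 199 and 144 FPKM at 4 h, against 46.7 and 47.1 at 2 h (log2 change 1.83), and stood at 12.8 and 12.3 at 0 h. It belongs to a family of closely similar genes, among which reads may be divided. GLR1, glutathione reductase, was the lower member, with 216 and 215 FPKM at 4 h, against 274 and 256 at 2 h (log2 change -0.30). Without 2 h replicate 1 the higher count was 2, and without 4 h replicate 1 it was 3. Of 20 heat shock protein genes, 5 were higher and 0 lower, HSP26 by a log2 change of 1.27 and the inducible SSA4 by 0.47. Their median of 0.09 became -0.01 without scaling, which added 4 lower calls. The higher count was 2 without 4 h replicate 1 and 3 without any other library.

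Aldehyde dehydrogenase genes, which the study examined in HU, changed in both directions. ALD3, a cytosolic stress-induced form, had 42.4 and 42.2 FPKM at 4 h, against 30.6 and 27.3 at 2 h (log2 change 0.53). ALD4, the main mitochondrial form, had 458 and 520.4 FPKM at 4 h, against 737 and 738 at 2 h (log2 change -0.59). ALD6, the main cytosolic form, had 542 and 535 FPKM at 4 h, against 619 and 622 at 2 h, and was not called. ALD2 (log2 change 0.25) and ALD5 (0.36) were called higher, so 3 of 5 were higher and 1 lower. Each of these calls was lost without 2 h replicate 2, and without scaling 1 was higher and 2 lower.

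Iron genes gave a mixed picture next to the zinc genes. Of 18 genes of the Aft1 regulon, 6 were higher and 2 lower, with a median log2 change of 0.14. Without scaling the balance turned, with 3 higher, 4 lower and a median of 0.05. ARN1, a transporter of iron bound to siderophores, had 81.3 and 76.5 FPKM at 4 h, against 29.2 and 31.0 at 2 h (log2 change 1.36, SE 0.08, limma, Benjamini-Hochberg adjusted p 5.56e-05). HMX1, heme oxygenase, had 12.4 and 13.2 FPKM at 4 h, against 24.9 and 21.1 at 2 h (log2 change -0.79). The higher members fell to 3, 3, 3 and 2 without 4 h replicate 1, 4 h replicate 2, 2 h replicate 1 or 2 h replicate 2.

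Several genes outside the lists stood among the 15 largest increases. BSC1 (YDL037C, chromosome IV, 384601 to 385587) and PRM7 (YDL039C, chromosome IV, 381985 to 384081) lie next to each other. BSC1 had 153 and 136 FPKM at 4 h, against 23.7 and 24.7 at 2 h (log2 change 2.53), and PRM7 had 77.7 and 71.5 FPKM at 4 h, against 16.4 and 13.6 at 2 h (log2 change 2.25). At 0 h the 2 neighbours had 7.73 and 7.21 and 4.69 and 4.57 FPKM, so both were barely expressed before the additions. Membrane transporters were also present. AQR1, a multidrug transporter that exports weak acids and amino acids, had 79.9 and 84.3 FPKM at 4 h, against 17.8 and 15.9 at 2 h (log2 change 2.22), and TPO2, a polyamine exporter, had 194 and 226 FPKM at 4 h, against 67.5 and 74.3 at 2 h (log2 change 1.55).

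VID24, the receptor by which the GID ubiquitin ligase recognises gluconeogenic enzymes, had 163 and 171 FPKM at 4 h, against 55.5 and 55.5 at 2 h (log2 change 1.57). RGS2, a regulator of the glucose-sensing G protein, had 65.3 and 65.0 FPKM at 4 h, against 20.8 and 23.4 at 2 h (log2 change 1.52). EFM6, a methyltransferase of elongation factor 1A, had 23.0 and 28.9 FPKM at 4 h, against 4.95 and 5.34 at 2 h (log2 change 2.12). The libraries of these 3 genes did not overlap between the times. YGP1, a secreted glycoprotein of nutrient-limited cells, had 1026 and 1088 FPKM at 4 h, against 426 and 344 at 2 h (log2 change 1.46), and 698 and 642 at 0 h. With any 1 of the 4 libraries left out, the 15 genes at the upper end kept their call. Those at the lower end did so too, except RGI2, YBR051W and YER066C-A. This did not hold for many of the called genes named from the groups. HSP26, CLB2, OLE1 and RRP36, for example, each lost their call in 3 of these 4 fits.

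**Figure D3:**
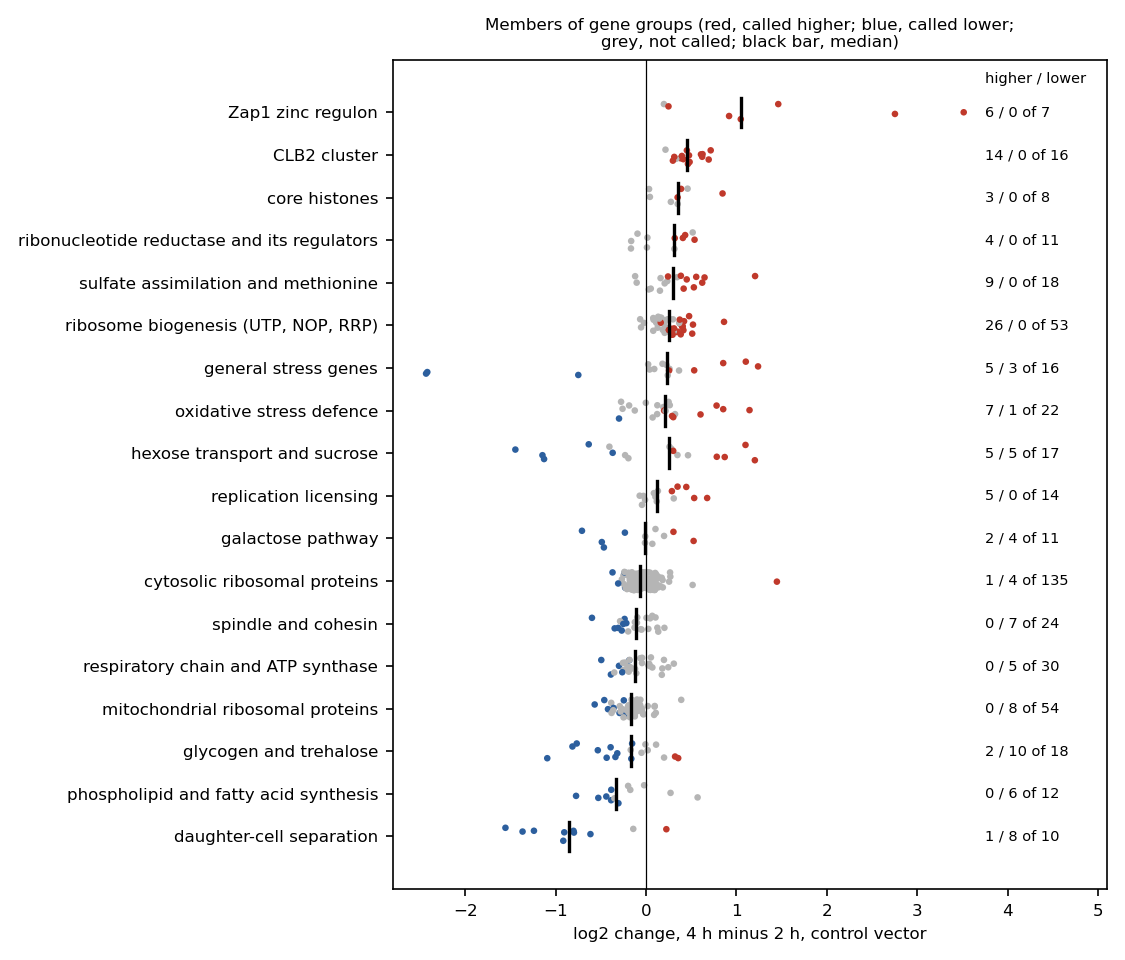
Each point is a gene of the group named on the y axis, placed by its log2 change, 4 h minus 2 h, in control-vector cells (x axis). Red points were called higher, blue points lower and grey points neither, black bars are group medians, and the numbers at the right count genes higher and lower of those tested. The zinc genes (median 1.05) and the daughter-cell separation genes (median -0.85) lie farthest from 0.

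The same interval in cells with the YOX1 vector shares no library with the control comparison, in cells that also overexpressed YOX1. It was not wholly separate from it, since the deviations of same-numbered libraries of the vectors from their group means correlated across genes at 0.16 at 2 h and 0.21 at 4 h. In control-vector cells 671 genes were higher and 588 lower, and in YOX1-vector cells 405 were higher (5.95% of those tested) and 354 lower (5.2%). Of the genes higher with the control vector, 310 (46.2%) were called higher with the YOX1 vector too, which is 76.5% of the higher calls there. Of the genes lower, 254 (43.2%) were called lower too, which is 71.8% of the lower calls there. No gene was called in opposite directions. All libraries entered a common estimate of the spread, so a gene with a small spread was more easily called in both.

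The zinc and daughter-cell genes changed with either vector. In YOX1-vector cells 6 of 7 zinc genes were higher, with ZRT1 changed by a log2 of 2.69 (SE 0.26), and 9 of 10 daughter-cell genes were lower, with DSE1 changed by -1.65. The CLB2 cluster had 14 of 16 members higher with the control vector and 3 with the YOX1 vector, where the median log2 change was 0.15. Ribosome biogenesis had 26 members higher with the control vector and 3 with the YOX1 vector. For no member of these 2 groups was the difference between vectors itself called. RNR2 changed by 0.41 with the control vector and -0.09 with the YOX1 vector, and RNR4 by 0.32 and -0.22. YHP1, the paralog of YOX1 and like it a repressor at early cell cycle genes, had 33.5 and 37.9 FPKM at 4 h, against 36.3 and 44.5 at 2 h with the control vector, where it was not called. With the YOX1 vector its log2 change was -1.18. The difference between vectors was not called for RNR2, RNR4 or YHP1 (limma, Benjamini-Hochberg adjusted p 0.192, 0.192 and 0.42). YOX1 itself, from its chromosomal copy, had 42.9 and 43.7 FPKM at 4 h, against 30.9 and 37.1 at 2 h in control-vector cells. It was not called (limma, Benjamini-Hochberg adjusted p 0.0528).

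Of the 8 genes that the study chose as candidate Yox1 targets, partly on these libraries, 4 were higher at 4 h with the control vector and 0 lower. UTH1, a SUN family cell wall protein, had 1298 and 1378 FPKM at 4 h, against 838 and 714 at 2 h (log2 change 0.79), and MMR1, which anchors mitochondria in the bud, had 117 and 99.8 FPKM at 4 h, against 71.9 and 59.3 at 2 h (log2 change 0.72). YML131W (log2 change 0.39) and RAD54 (0.26) were the others. Without scaling 3 of the 8 were higher and 2 lower, and with same-numbered libraries paired in a replicate block 4 were higher and 1 lower. A list chosen on the same samples is not independent evidence of its direction. With 4 h replicate 1 left out, 2 of the 8 were higher.

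A direct test of the difference in the late change between vectors called 4 genes (0.0587% of those tested), while 462 differed at an unadjusted p under 0.05. NCA3, a SUN family gene linked to mitochondrial ATP synthase expression, had 143 and 147 FPKM at 4 h, against 45.9 and 43.6 at 2 h with the control vector. With the YOX1 vector it had 27.3 and 27.3 FPKM at 4 h, against 25.4 and 25.6 at 2 h. The log2 changes were 1.68 in control-vector cells and 0.09 in YOX1-vector cells. The difference, YOX1 vector minus control vector, was -1.58 on the log2 scale (SE 0.09, limma, Benjamini-Hochberg adjusted p 0.000735). YRO2, a membrane protein of the Hsp30 family, had 469 and 479 FPKM at 4 h, against 109 and 100.2 at 2 h with the control vector. In YOX1-vector cells YRO2 had 38.3 and 45.9 FPKM at 4 h, against 22.6 and 29.1 at 2 h. Its difference was -1.48 (SE 0.17). ZPS1 changed by 2.75 with the control vector and 1.83 with the YOX1 vector, a difference of -0.93, whereas ADH4 changed by 0.92 and 1.62, a difference of 0.70. These 2 zinc genes thus differed between vectors in opposite directions. The count was between 1 and 3 with any 1 of the 8 libraries left out, and 1 with a replicate block.

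**Figure D4:**
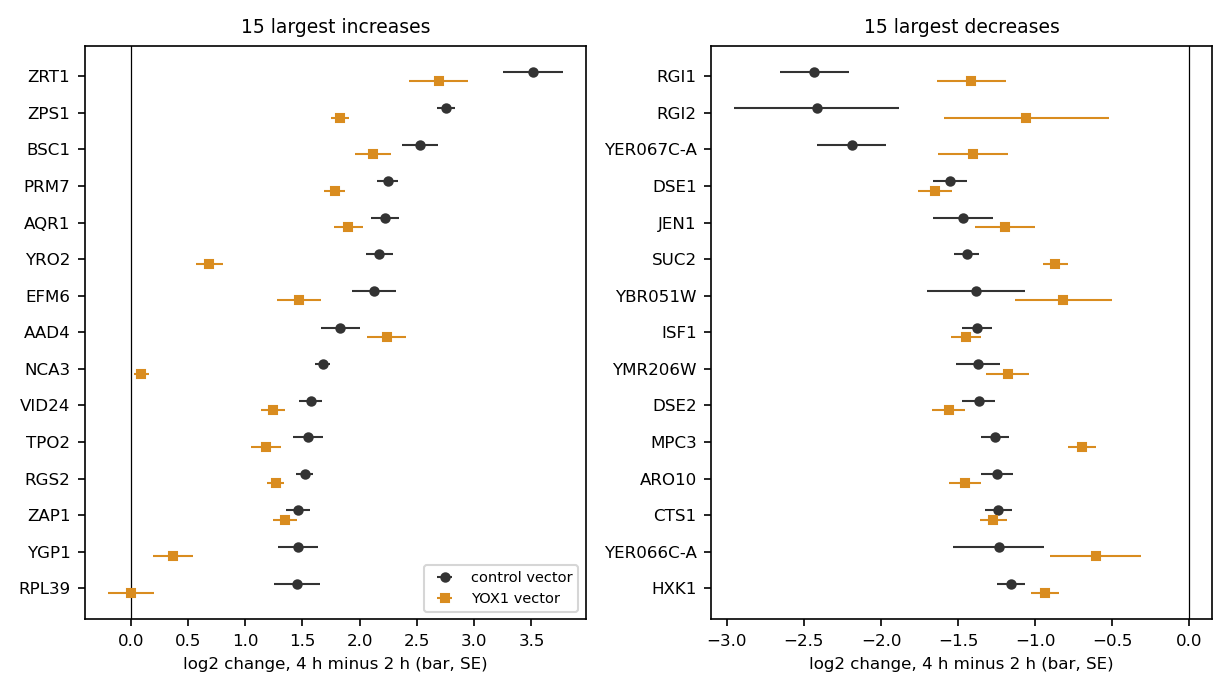
Log2 change, 4 h minus 2 h (x axes), of the 15 genes with the largest increase and the 15 with the largest decrease in control-vector cells. Black circles are control-vector cells, orange squares are YOX1-vector cells and bars are standard errors from limma. NCA3 changed by 1.68 with the control vector and by 0.09 with the YOX1 vector, and DSE1 changed by about the same amount with both.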

How the data were processed

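RNA was measured in 12 libraries, 2 for each vector and time, from rRNA-depleted RNA prepared with an unstranded TruSeq kit. The authors aligned the reads to sacCer3 with Tophat2 and quantified them with Cufflinks and Cuffdiff at default settings. The deposited values are FPKM per gene, each with a status. Reads are shared out among overlapping genes by likelihood, and a gene with a status other than OK is listed at 0. FPKM keep no counts, and the fragment numbers given here were inferred from the intervals of the estimates. Of those under 30, 74.1% lay within 0.05 of a whole number, so no count test was run. With 2 libraries per group the number of libraries limits the precision.

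Libraries were brought to a common level with median-ratio factors (0.932 to 1.07) computed over 6585 genes above 0 throughout. limma 3.58.1 (R 4.3.3; trend on, robust off) fitted 6 group means to the log2(scaled FPKM + 1) values of the 12 libraries. Log2 changes on this scale understate the change of low genes. Genes with a completed estimate in all libraries and that averaged at least 1 FPKM over the 4 libraries compared were tested, and p-values were two-sided and adjusted over the 6809. Cuffdiff, which the methods name, needs reads and was not run. Data were simulated with the 4 h means set to the 2 h means and normal noise of each gene's own spread. Changes were put only in genes that averaged above about 10 FPKM, so the shares recovered do not cover lower genes. Of the genes changed by 1 on the log2 scale 95% were called, as were 75% of those changed by 0.5 and 0.166% of unchanged genes. The noise was drawn independently for each gene, so deviations shared by many genes of a library were not simulated. These shares therefore do not cover errors of that kind. The paper's methods describe the replicates of this experiment as biological and independent. P-values measure the spread between the libraries of a group, which may in part be technical.

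Groups of genes are described by counts and medians. The comparison, the gene lists and the tests were chosen with earlier results of these data known. Genes named were the 15 with the largest change in each direction (called, at least 10 FPKM in the higher group, libraries without overlap, span of at least 300 bp), a fixed set of GAL, RNR, YOX1, YHP1, HUG1 and URA3 genes, and up to 3 called members per list and direction. Other genes were named after their values were seen. Matching to RefSeq (R64) gave 6048 genes by locus tag and 31 by symbol, and 6036 of the 6048 had the same coordinates as in the tables. Alternatives were other pseudocounts and filters, values as deposited, robust estimation, a fold limit, fewer libraries, a replicate block and each library left out. Columns with the bounds of the estimates served only to infer fragment numbers.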

Additional observations from a re-analysis of the deposited data

Results flagged for a closer look

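The late change differed between the vectors by a direct test of the difference for 4 genes. On the log2 scale, as the change with the YOX1 vector minus that with the control vector, the difference was -1.48 for YRO2, -1.58 for NCA3, -0.93 for ZPS1 and 0.70 for ADH4. YRO2, NCA3 and ZPS1 rose more with the control vector, and ADH4 rose more with the YOX1 vector.

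Ty retrotransposon genes could not be compared in the tables, because many of their estimates carry a status other than OK and are listed at 0. The features without a completed estimate numbered 22 in 4 h replicate 1 and 40 in 4 h replicate 2, and 0 in both 2 h libraries of the control vector. With the YOX1 vector they numbered 10 and 42 at 4 h, against 0 and 43 at 2 h, the 43 in the library with the most fragments, so they were not particular to 4 h. Those with the control vector were all Ty reading frames. The 18 features that were completed in 4 h replicate 1 stood above both 2 h libraries in 18 of 18 cases, with a median log2 ratio of 0.52 (range 0.11 to 0.58) to the 2 h mean. These ratios, and the levels given next, are from the values as deposited, without scaling. YDR098C-B, for example, had 552 FPKM in 4 h replicate 1, against 385 and 380 at 2 h, and 297 and 321 at 0 h. The values rest on a single 4 h library and on features that share sequence, so no test was made.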

How the results depend on the processing

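The counts of 671 higher and 588 lower genes were within 1.5 times of these values with pseudocounts of 0.1 and 10, no filter or a filter of 10 FPKM, robust estimation, the 6 control-vector libraries and a replicate block. They moved to 426 and 1291 with values as deposited, to 233 and 132 with the spread taken from the 4 libraries compared, and to 64 and 43 with a 2-fold limit. With a library left out they ranged from 347 to 465 and from 249 to 429, where the lone library of a group is assumed to vary like the others. The replicate block, in which same-numbered libraries are paired, gave 729 and 622. Deviations of same-numbered 4 h and 2 h control libraries correlated across genes at -0.027, and those of same-numbered libraries of the vectors at 0.11 (0 h), 0.16 (2 h) and 0.21 (4 h). With 2 numbers and no label that ties a number to a culture, the numbers were not taken to pair the libraries. The 4 genes whose change differed between vectors became 1 with a pseudocount of 0.1, 7 with no filter, 2 with values as deposited, 1 with the replicate block, 1 with only the 8 libraries compared, 2 with a 2-fold limit, and 1 to 3 with a library left out. The 759 genes called with the YOX1 vector became 74 with a 2-fold limit. Of the gene groups, the CLB2 cluster had 2 and ribosome biogenesis 0 higher members with the spread of the 4 libraries alone, against 5 zinc genes higher and 8 daughter-cell genes lower. In that setting 3 glycogen and trehalose genes were lower. The phospholipid and fatty acid, ergosterol, and spindle and cohesin groups each had 0 lower members. No named gene changed sign where it was called. Values were the same side of the threshold in 1952 comparisons of named genes with an alternative, 444 lost the call and 5 gained it. Among genes under about 10 FPKM, and where genes overlap, the depth limits what can be told.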
